A study of Mus musculus with 6 samples.

Results

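The genes described here are p53 (Trp53), the proteins that hold it in check, and an extended set of its target genes in repair, cell death, growth arrest and metabolism. They are 35 genes taken by symbol from a list chosen with earlier results of these data known, out of 56941 gene IDs in the count table. All 35 passed the filter on low counts that left 17072 genes for testing. The libraries are RNA-seq of CD31-positive cells from mouse lungs on postnatal day 7, with 3 from pups kept in room air (21% oxygen) and 3 from pups kept in hyperoxia (75% oxygen) from postnatal day 0. CD31 is a surface protein of endothelial cells, and the cells were drawn from digested lung with CD31 magnetic beads. The labels name no strain, genotype, sex or further treatment, and they do not say that replicates were separate animals, so p-values here reflect only how these libraries vary, which may be technical. The comparison asks how oxygen exposure from birth changed the RNA of these cells.

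The transcription factor p53 is made all the time and destroyed quickly, because Mdm2 tags it for degradation and Mdm4 masks its activating domain. DNA damage and other stresses, oxidants among them, release p53 from both, so its activity can rise with no change in its mRNA. Active p53 switches on genes that stop division, repair DNA, adjust metabolism or kill the cell, and among them are Mdm2, Ccng1 and Ppm1d, which shut it down again. Hyperoxia damages DNA in lung cells, and p53 with its targets has been studied there as part of the response to oxygen.

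The libraries held 39379793 to 42343192 counts. Levels are given in CPM (library-scaled counts, with TMM normalization), in the order of libraries 1, 2 and 3 of a group, and mean ± SD has n = 3. Reads of 4 Y-linked genes summed to 132 to 162 CPM in the room air libraries and 155 CPM under hyperoxia 2, but to 0.0485 CPM under hyperoxia 1 and 0 in hyperoxia 3, where 0 counts allow up to 0.0762 CPM. Y-linked read status, and with it the sex of the pups, was thus partly confounded with oxygen. In a fit with a term for that status, the oxygen effect rests on hyperoxia 2 against room air. Endothelial markers were abundant in every library, with 8 defining genes (Pecam1 for CD31, Cdh5, Kdr, Tek, Tie1, Emcn, Cldn5 and Egfl7) summing to 11440 to 15910 CPM under room air against 9360 to 12880 CPM under hyperoxia. Epithelial RNA was abundant too: 9 markers of alveolar type 1 cells summed to 1723 to 2709 CPM under room air against 4375 to 5991 CPM under hyperoxia, and 8 of type 2 cells to 12380 to 19370 CPM under room air against 13850 to 16900 CPM under hyperoxia. In such bulk samples, more cells of a type and more RNA per cell cannot be told apart.

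Of the 35 genes, 19 rose in hyperoxia, 0 fell and 16 did not pass (edgeR's quasi-likelihood test, adjusted p below 0.05 over all genes tested). Among all genes tested, 6.77% were called higher and 4.41% lower. Because the list was chosen with earlier results of these data known, its counts beside such shares are a description only. The median log2 fold change was 0.68 over the members and -0.01 over all genes tested. The level was called higher and at least doubled in 13 members, as it was in 2.91% of all genes tested. In 20 members every hyperoxia library lay above every room air library, against 16.5% of all genes; these were the 19 and Abhd4. Rrm2b alone lay below in every library, against 14.4% of all genes. The count of 0 lower members was also found by DESeq2 and limma-voom, and 1 member, Mdm4, was lower at an unadjusted p below 0.05. The members called higher numbered 15 without room air 1, 16 without hyperoxia 2, 16 without hyperoxia 3 and 20 by DESeq2, with no filter on low counts or with a term for Y-linked read status. The background moved more: 754, 681 and 713 of all genes were called higher without room air 1, room air 2 and hyperoxia 3, in place of 1156, and 376, 487, 496 and 430 lower without room air 2 and hyperoxia 1, 2 and 3, in place of 753.

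**Figure D1:**
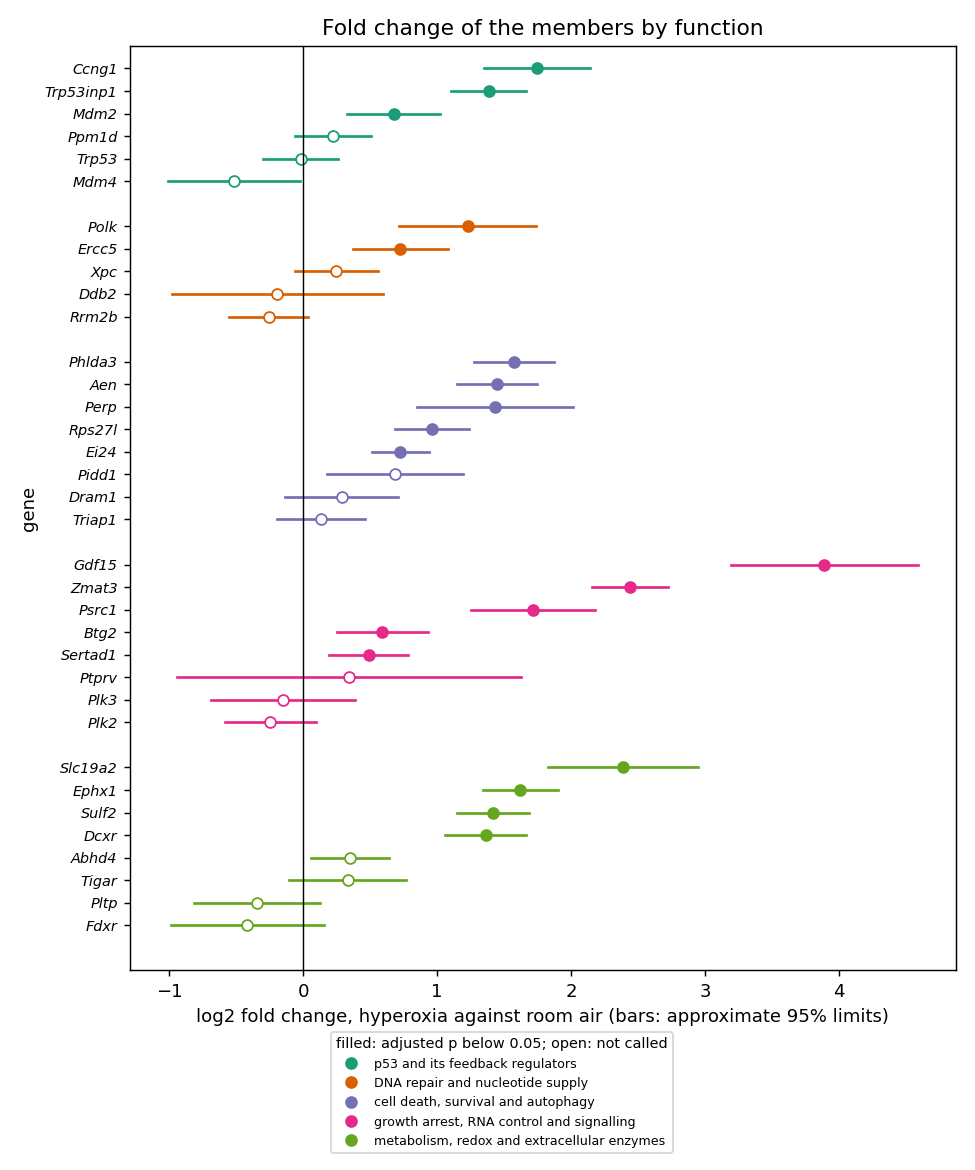
Log2 fold change of each of the 35 genes in hyperoxia against room air (x axis, 3 libraries a group), with approximate 95% limits as bars, grouped and coloured by function. Filled points passed the test; Gdf15 lies farthest to the right at 3.89, and each group holds called and uncalled genes.

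Promoter sequence is shown because p53 acts through a short DNA motif, the p53 decamer, of which a complete element has 2 side by side. RefSeq windows (GRCm38.p6) from 250 bases before to 50 after a start were found for 28 members, 36 windows in all. Sequence outside these windows, introns further into a gene included, was not searched. The consensus decamer was searched by its letters on both strands, which are equivalent because it is its own reverse complement. It was found in 10 of the 36 member windows (27.8%) and in 8.36% of all 32851 windows; some windows overlap. By gene, it was present for 6 of 16 called members with a window and 3 of 12 uncalled ones. A looser motif, 2 copies of the decamer's inner 4 letters at the spacing of a complete element, was in 16.7% of member windows and 7.22% of all. By gene, this looser motif was in 2 called (Aen and Rps27l) and 3 uncalled ones (Trp53, Plk2 and Tigar). Ccng1 did not hold it. No member window held 2 exact decamers side by side, as 3 of all windows did. The called members Ccng1 and Rps27l, whose decamers have the best-matching neighbours, and Aen, whose site lies in both of its windows, are set beside Mdm2 and the uncalled Trp53, 30 bases each with the exact decamer in capitals and the neighbouring 10 bases on either side in lower case.
Ccng1 (chr11:40755452-40755481, minus strand): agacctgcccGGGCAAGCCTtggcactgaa
Rps27l (chr9:66946296-66946325, plus strand): gggcttgttgAGACTTGTCCgggcgacacg
Aen (chr7:78895927-78895956, plus strand): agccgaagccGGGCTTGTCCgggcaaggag
Mdm2 (chr10:117710925-117710954, minus strand): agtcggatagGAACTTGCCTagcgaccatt
Trp53 (chr11:69580274-69580303, plus strand): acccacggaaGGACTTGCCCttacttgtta
The neighbour before the decamer matched the consensus at 9 of 10 letters in Ccng1 and 9 of 10 in Rps27l. The better neighbour matched at 7 of 10 in Aen, in Trp53 and in Polk, whose site is not shown, and at 5 of 10 in Mdm2. A match is a description of these letters and not a bound site, and Gdf15, the gene with the largest rise, has no exact decamer in either of its windows.

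Among p53 and its feedback regulators, Ccng1, Trp53inp1 and Mdm2 rose, while Trp53 itself, Ppm1d and Mdm4 did not pass. Trp53 stood at 163, 132 and 133 CPM under room air against 149, 123 and 149.8 CPM under hyperoxia (log2 fold change of -0.02 with an SE of 0.13, adjusted p = 0.943). The groups overlapped, and the 95% limits of the log2 fold change were -0.30 to 0.26, below the log2 fold change of every called member (0.49 or more). Mdm2, the ubiquitin ligase that marks p53 for destruction, was at 41.6, 59.5 and 58.7 CPM under room air against 72.0, 97.6 and 85.5 CPM under hyperoxia (log2 fold change of 0.68 with an SE of 0.16, adjusted p = 0.0206). All hyperoxia libraries were above all room air libraries, but Mdm2 no longer passed once room air 1 was left out (adjusted p = 0.059), nor on omitting hyperoxia 2 (0.0559) or 3 (0.0665).

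Mdm4, which binds and silences p53 without degrading it, was at 46.8, 92.0 and 89.3 CPM under room air against 45.9, 62.3 and 51.1 CPM under hyperoxia (log2 fold change of -0.52 with an SE of 0.22, adjusted p = 0.178). Room air 1 was as low as the hyperoxia libraries, and without it Mdm4 was called lower (log2 fold change of -0.78, adjusted p = 0.0113). Mdm4 was also called lower by edgeR with no filter on low counts (adjusted p = 0.00223). There its log2 fold change was nearly unchanged (-0.51), and its SE was 0.13, as were those of Trp53, Mdm2 and Ccng1. SEs in that fit hardly followed a gene's own spread, so the call does not weigh the disagreement of the room air libraries. Taken within a library, the ratio of Mdm2 to Mdm4 in CPM was 0.888, 0.646 and 0.658 in room air and 1.57, 1.57 and 1.67 in hyperoxia. The ratio was looked at after the values of both genes were seen, and it is given without a test; its groups did not overlap, room air 1 included.

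**Figure D2:**
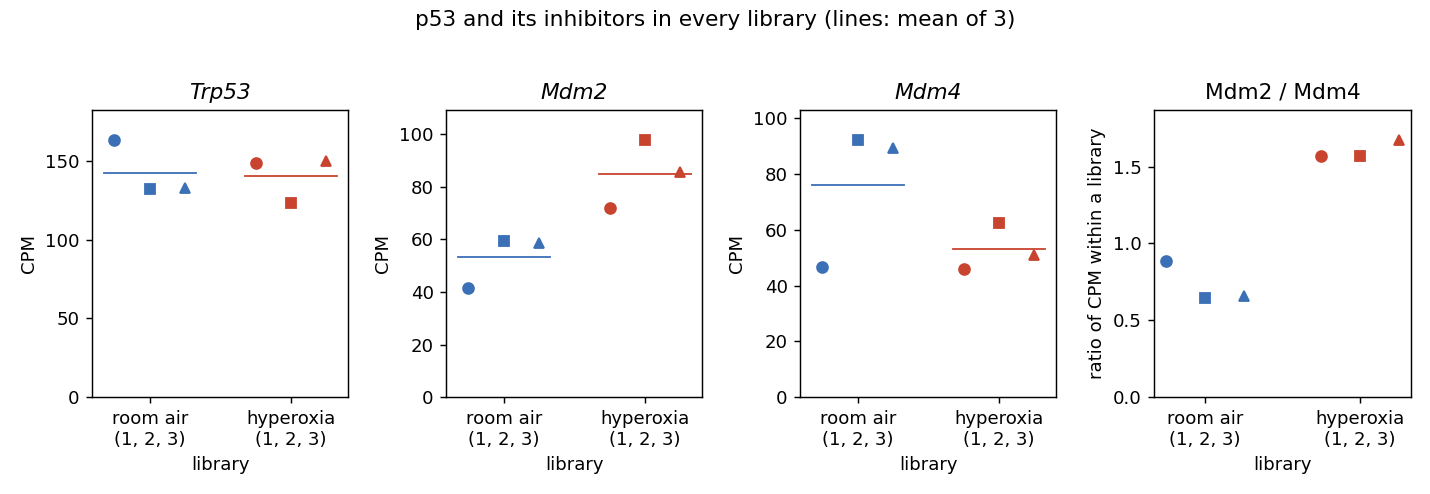
CPM of Trp53, Mdm2 and Mdm4 and the within-library ratio of Mdm2 to Mdm4 (y axes from 0) in the 3 room air (blue) and 3 hyperoxia (red) libraries, with circle, square and triangle for libraries 1, 2 and 3 and lines at group means in the CPM panels. Trp53 overlaps between groups, and the ratio lies at or below 0.888 in room air and at or above 1.57 in hyperoxia.

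Ccng1, cyclin G1, which helps Mdm2 act on p53, held 32.8, 29.8 and 39.5 CPM under room air against 90.5, 147 and 105 CPM under hyperoxia (log2 fold change of 1.75 with an SE of 0.18, adjusted p = 0.00033). Trp53inp1, a nuclear protein that assists p53 and also works in autophagy, went from 46.6, 59.6 and 51.6 CPM to 121, 144 and 147 CPM (log2 fold change of 1.39 with an SE of 0.13, adjusted p = 0.000184). For both genes the lowest hyperoxia library was more than 2 times the highest room air library, and both stayed called in all 15 alternative fits. Ppm1d, the phosphatase WIP1 that removes activating phosphates from p53, was at 29.7, 27.5 and 24.6 CPM and 28.1, 33.8 and 33.6 CPM, with overlapping groups (log2 fold change of 0.23 with an SE of 0.13, adjusted p = 0.317). The 95% limits of Ccng1 (1.35 to 2.14) lay above those of Mdm2 (0.33 to 1.02) and of Ppm1d (-0.06 to 0.51).

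In DNA repair and nucleotide supply, 2 of 5 genes rose and 3 did not pass; the group's median log2 fold change was 0.25, the lowest of the 5 function groups. Polk, the polymerase kappa that copies past damaged bases, was at 7.14, 13.4 and 9.56 CPM under room air against 19.3, 28.8 and 22.2 CPM under hyperoxia (log2 fold change of 1.23 with an SE of 0.23, adjusted p = 0.00741). Ercc5, the XPG nuclease that cuts out damaged strands in nucleotide excision repair, was at 17.2, 23.2 and 21.4 CPM and 30.4, 40.9 and 31.0 CPM (log2 fold change of 0.73 with an SE of 0.16, adjusted p = 0.0155). Hyperoxia lay above room air throughout for both. Ercc5 lost its call when room air 1 was omitted (adjusted p = 0.0556) or without hyperoxia 2 and room air 3 together (0.0581), which leaves 1 called gene in the group.

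The damage sensors of the same excision pathway did not pass. Xpc, which finds distorted DNA, was at 31.0, 36.0 and 32.5 CPM and 41.9, 32.1 and 44.3 CPM (log2 fold change of 0.25 with an SE of 0.14, adjusted p = 0.306). Ddb2, which recognises ultraviolet damage, was at 2.64, 4.29 and 5.86 CPM and 3.20, 5.31 and 2.67 CPM (log2 fold change of -0.19 with an SE of 0.36, adjusted p = 0.787), with wide 95% limits of -0.98 to 0.59; 23.8% of its exonic bases overlap Acp2 on the other strand, and the strand setting of the counts is not given in the sources used here. Rrm2b, the p53-inducible subunit of ribonucleotide reductase that supplies nucleotides for repair, was at 19.6, 23.5 and 22.2 CPM under room air against 18.2, 17.4 and 19.0 CPM under hyperoxia (log2 fold change of -0.26 with an SE of 0.13, adjusted p = 0.26). Its hyperoxia libraries were all below room air, by a narrow margin, and its 95% limits (-0.55 to 0.03) exclude a rise of the size seen for Polk or Ercc5.

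Of 8 genes of cell death, survival and autophagy, 5 rose and 3 did not pass, and all 8 had a positive log2 fold change (median 0.84). Phlda3, which blocks the survival kinase Akt at the membrane, held 89.4, 79.2 and 63.2 CPM under room air against 227, 238 and 224 CPM under hyperoxia (log2 fold change of 1.57 with an SE of 0.14, adjusted p = 0.000127). Its hyperoxia libraries were nearly identical (SD of log2 CPM 0.047). Aen, a nuclease that takes part in apoptosis, was at 21.4, 16.9 and 18.1 CPM and 44.8, 55.1 and 53.9 CPM (log2 fold change of 1.45 with an SE of 0.14, adjusted p = 0.000202). Rps27l, a ribosomal protein paralogue that p53 induces, was at 25.2, 26.0 and 31.5 CPM and 52.9, 58.6 and 49.6 CPM (log2 fold change of 0.96 with an SE of 0.13, adjusted p = 0.00118).

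Ei24, an endoplasmic reticulum protein of autophagy, had the smallest replicate SD of any member in hyperoxia, at 96.8, 92.3 and 97.3 CPM under room air against 158, 154 and 162 CPM under hyperoxia (log2 fold change of 0.72 with an SE of 0.10, adjusted p = 0.00126). Its 1.65-fold rise was called at a smaller adjusted p than the 2.70-fold rise of Perp. Perp, a desmosome protein of epithelia and an apoptosis effector, was at 5.76, 5.54 and 10.8 CPM and 16.2, 23.8 and 19.9 CPM (log2 fold change of 1.44 with an SE of 0.26, adjusted p = 0.00624). Within room air Perp was highest in library 3 and within hyperoxia in library 2, the libraries with the highest summed alveolar type 1 markers of their groups (2709 and 5991 CPM); the part of epithelial RNA in its rise was not tested.

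Pidd1, a scaffold that activates caspase-2, was at 7.45, 7.09 and 9.89 CPM under room air against 9.45, 16.2 and 13.7 CPM under hyperoxia (log2 fold change of 0.69 with an SE of 0.23, adjusted p = 0.083), and room air 3 exceeded hyperoxia 1. It was called higher without hyperoxia 1 (adjusted p = 0.0376), by DESeq2 (0.0368), with no filter on low counts (0.0134) and in the fit with a Y-linked term (0.0333). The fit with no filter is the one whose SEs hardly followed the spread of Mdm4. Dram1, a lysosomal protein of autophagy, was at 161, 156 and 246 CPM under room air against 190.2, 275 and 221 CPM under hyperoxia (log2 fold change of 0.29 with an SE of 0.19, adjusted p = 0.396). Room air 3 was the highest room air library, and without it Dram1 was called higher (adjusted p = 0.0491). Triap1, a mitochondrial lipid-transfer protein that protects from apoptosis, was at 16.9 ± 1.83 CPM under room air against 18.5 ± 2.0 CPM under hyperoxia (log2 fold change of 0.13 with an SE of 0.15, adjusted p = 0.637).

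Growth arrest, RNA control and signalling held the largest rises of the whole set and also genes with none: 5 of 8 rose and 3 did not pass. Gdf15, a secreted stress cytokine, was at 2.42, 3.90 and 5.72 CPM under room air against 39.9, 77.4 and 61.7 CPM under hyperoxia (log2 fold change of 3.89 with an SE of 0.32, adjusted p = 0.000102). The lowest hyperoxia library stood 2.80 log2 units above the highest room air library. Zmat3, an RNA-binding protein that acts in splicing and mRNA stability downstream of p53, was at 22.5, 23.2 and 23.1 CPM and 105, 142 and 127 CPM (log2 fold change of 2.44 with an SE of 0.13, adjusted p = 7.63e-06). Room air libraries agreed on Zmat3 to an SD of log2 CPM of 0.023, the smallest of any member in either group, and its adjusted p was the smallest too. Psrc1, a spindle-associated protein, was at 7.09, 5.51 and 7.58 CPM and 17.1, 27.7 and 21.5 CPM (log2 fold change of 1.72 with an SE of 0.21, adjusted p = 0.00082).

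Btg2 and Sertad1 rose least among the called members. Btg2, an antiproliferative cofactor of mRNA deadenylation, was at 365, 475 and 412 CPM under room air against 519.5, 719.5 and 647 CPM under hyperoxia (log2 fold change of 0.59 with an SE of 0.15, adjusted p = 0.034). Sertad1, a regulator of cyclin-dependent kinase 4 and of E2F activity, was at 70.0, 95.4 and 70.9 CPM and 109, 119.6 and 103 CPM (log2 fold change of 0.49 with an SE of 0.14, adjusted p = 0.0425). The gap between the highest room air and the lowest hyperoxia library was only 0.13 and 0.10 log2 units. Btg2 lost its call when room air 1 was omitted (adjusted p = 0.123), likewise room air 3 (0.0527), hyperoxia 2 (0.101) or hyperoxia 3 (0.12). Sertad1 did not pass without room air 1 (0.14), room air 3 (0.0994), hyperoxia 1 (0.093), hyperoxia 2 (0.112) or hyperoxia 3 (0.0854). Both also failed without hyperoxia 2 and room air 3 together (0.0873 and 0.194), and 3 called genes were left in the group without room air 1, room air 3, hyperoxia 2, hyperoxia 3 or that pair.

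Btg2, Plk2 and Plk3 are also immediate early genes, which tissue digestion can induce. Of 15 immediate early genes on a separate list, 7 rose, 0 fell and 8 did not pass (0 lower also by DESeq2 and limma-voom and at an unadjusted p below 0.05), with a median log2 fold change of 0.64 and a summed level of 7805 to 11990 CPM under room air against 13140 to 13920 CPM under hyperoxia. Without hyperoxia 2 and room air 3 together, 2 of them rose, and with a term for Y-linked read status 5 rose and 1 fell. Room air 1 was the lowest room air library for that sum, as it was for Btg2, Plk2, Plk3, Mdm2 and Mdm4. Their part in the rise of Btg2 and Sertad1 was not tested.

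The polo-like kinases did not pass. Plk2 was at 746, 1020 and 802 CPM under room air against 643, 763 and 762 CPM under hyperoxia (log2 fold change of -0.24 with an SE of 0.15, adjusted p = 0.359). Plk3 was at 18.8, 38.2 and 40.2 CPM and 24.0, 32.0 and 31.5 CPM, with room air 1 the lowest library of all (log2 fold change of -0.15 with an SE of 0.24, adjusted p = 0.753). Ptprv, a receptor phosphatase of p53-driven arrest in mice, was low, with 12, 59 and 47 counts in room air and 39, 50 and 60 in hyperoxia. Its room air libraries disagreed (SD of log2 CPM 1.17). The 95% limits of -0.95 to 1.62 allow a fall or a rise, so a change within them was not detectable with these libraries.

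Of 8 genes of metabolism, redox and extracellular enzymes, 4 rose and 4 did not pass (median log2 fold change 0.86), and each of the 4 at least doubled. Slc19a2, a thiamine transporter, was at 1.96, 3.83 and 3.43 CPM under room air against 14.8, 18.1 and 15.3 CPM under hyperoxia (log2 fold change of 2.39 with an SE of 0.25, adjusted p = 0.0004). Ephx1, the microsomal epoxide hydrolase of detoxification, was at 93.5, 75.0 and 70.9 CPM and 250.4, 236 and 250.3 CPM (log2 fold change of 1.62 with an SE of 0.13, adjusted p = 9.62e-05). Sulf2, an extracellular sulfatase that edits heparan sulfate, was at 58.0, 47.9 and 45.2 CPM and 128, 129 and 147 CPM (log2 fold change of 1.42 with an SE of 0.12, adjusted p = 0.00013). Dcxr, a dicarbonyl and xylulose reductase, was at 20.7, 22.7 and 24.6 CPM and 52.0, 68.9 and 54.2 CPM (log2 fold change of 1.36 with an SE of 0.14, adjusted p = 0.000293). For all 4 the lowest hyperoxia library was more than 2 times the highest room air library.

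The other 4 did not pass. Tigar, a phosphatase that turns sugar away from glycolysis, was at 10.2 ± 1.62 CPM under room air against 12.8 ± 2.54 CPM under hyperoxia (log2 fold change of 0.33 with an SE of 0.20, adjusted p = 0.335). Abhd4, a lipase of phospholipid metabolism, was at 114, 109 and 81.3 CPM under room air against 135, 124 and 128 CPM under hyperoxia (log2 fold change of 0.35 with an SE of 0.13, adjusted p = 0.126), the single member with separate groups above room air and no call. Fdxr, the mitochondrial ferredoxin reductase, was at 9.22, 8.21 and 8.62 CPM and 8.92, 4.25 and 6.32 CPM (log2 fold change of -0.42 with an SE of 0.26, adjusted p = 0.356); it was called lower with a term for Y-linked read status (log2 fold change of -1.03, adjusted p = 0.0412), a fit in which hyperoxia 2 alone shares its status with room air. Pltp, the phospholipid transfer protein, was at 398 ± 108 CPM under room air against 313 ± 73.8 CPM under hyperoxia (log2 fold change of -0.34 with an SE of 0.21, adjusted p = 0.357), and 19.3% of its exonic bases overlap Ctsa on the other strand.

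**Figure D3:**
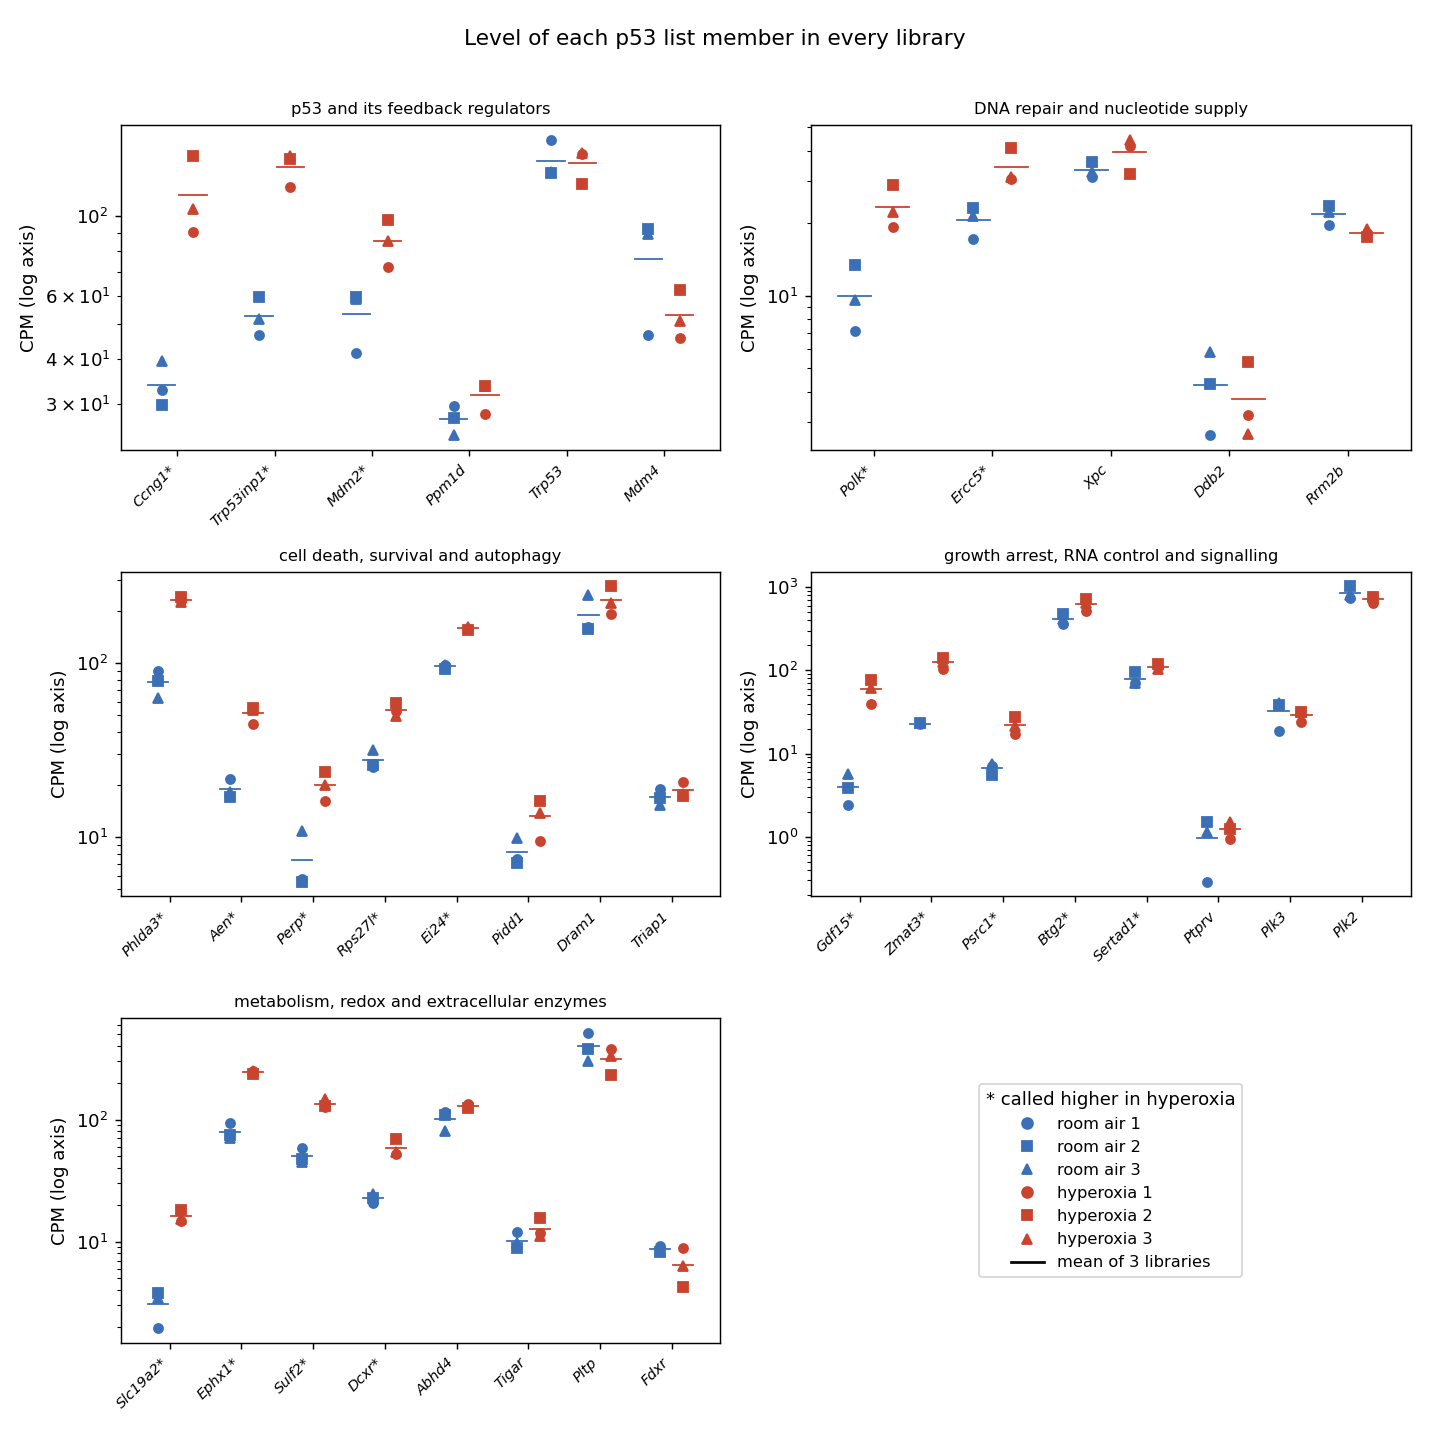
CPM of each of the 35 genes (log axes) in the 3 room air (blue) and 3 hyperoxia (red) libraries, 1 panel per function, with circle, square and triangle for libraries 1, 2 and 3, lines at group means and an asterisk on called genes. Zmat3 in room air and Ei24 in both groups show points that nearly coincide, and hyperoxia 2 (red square) is often the highest point.

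Log2 fold changes spanned a wider range within each function than the medians did between functions. Median log2 fold changes over all members of a function were 0.45 for p53 and its regulators, 0.25 for repair, 0.84 for death and survival, 0.54 for growth arrest and signalling and 0.86 for metabolism. The range ran from -0.24 to 3.89 in growth arrest and signalling alone. Among called genes only, a choice that fixes the sign, the medians were 1.39, 0.98, 1.44, 1.72 and 1.52 in the same order. The functions hold 5 to 8 genes each, and no test was made between them.

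Replicate spread of the members was close to that of all genes tested. The median SD of log2 CPM over the members was 0.224 in room air and 0.223 in hyperoxia, against 0.220 and 0.206 over all genes tested. By function, the hyperoxia median was lowest for death and survival (0.157) and highest for repair (0.249). The SD was larger in hyperoxia than in room air for 11 of the 35. Gdf15 varied most among called genes, with an SD of 0.61 in room air and 0.48 in hyperoxia, yet its groups were the farthest apart. Slc19a2 and Perp varied more in room air (SD 0.51 and 0.54) than in hyperoxia (0.16 and 0.28), and Zmat3 and Ccng1 the other way (0.023 and 0.21 against 0.22 and 0.36). With 3 libraries a group these SDs are themselves imprecise.

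**Figure D4:**
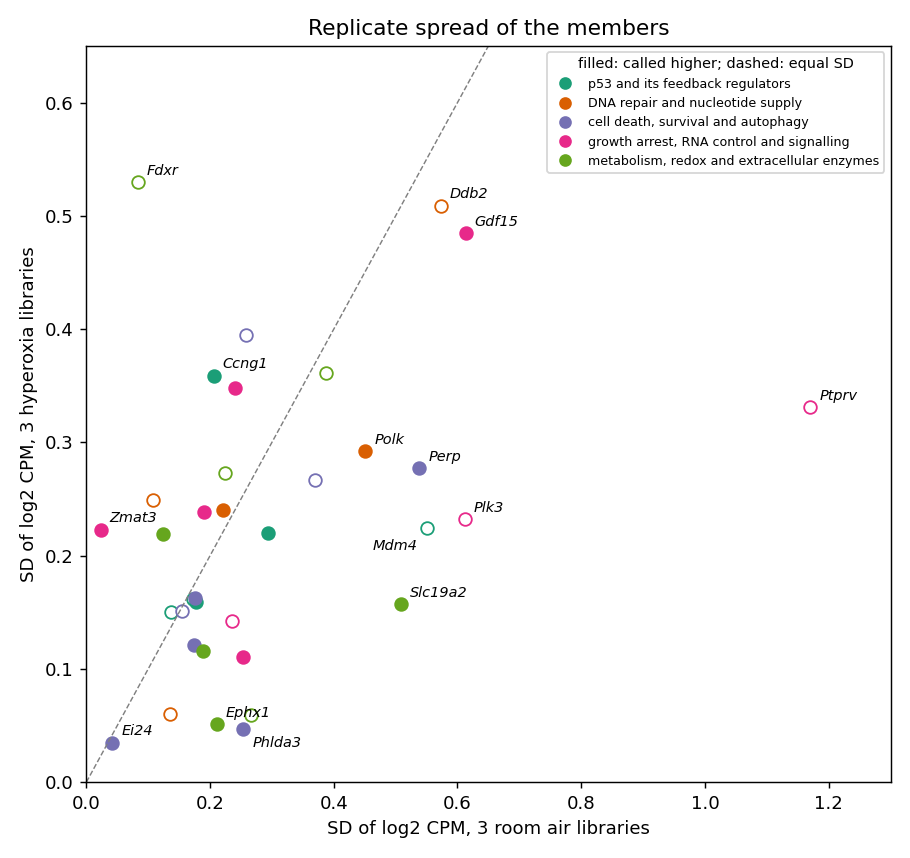
SD of log2 CPM over the 3 hyperoxia libraries (y axis) against that over the 3 room air libraries (x axis) for the 35 genes, coloured by function, with filled points for called genes and a dashed line of equal SD. Ptprv lies far to the right with an SD of 1.17 in room air, and Ephx1, Phlda3 and Ei24 lie near the bottom with SDs in hyperoxia of 0.051, 0.047 and 0.035.

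The median rise of the called genes differed between the hyperoxia libraries, a description without a test. The median log2 rise of the 19 called genes over the room air mean was 1.20 in hyperoxia 1, 1.57 in hyperoxia 2 and 1.50 in hyperoxia 3. Hyperoxia 2 was the highest hyperoxia library for 15 of the 19, and hyperoxia 1 the lowest for 14. Over all 35 members, hyperoxia 2 was highest for 23 and hyperoxia 1 lowest for 21. Genes that vary together are not separate evidence, and no share over all genes was computed. In hyperoxia 2 the summed type 1 markers (5991 CPM) and mitochondrially encoded genes (26980 CPM) were also the highest of all 6 libraries and the endothelial markers the lowest (9360 CPM); their part in the order of the libraries was not tested. Without hyperoxia 2, 16 members were called higher, and without hyperoxia 2 and room air 3 together also 16. For 11 of the 19 the lowest hyperoxia library was at least 2 times the highest room air library. The 19 were picked by a test that favours such separation, and the share of all genes with this gap was not computed.

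Per kilobase of exon, Plk2 (191 ± 32.1 CPM per kb), Pltp (155 ± 42.0) and Btg2 (152 ± 20.1) stood highest in room air, with overlapping ranges of mean ± SD. The genes share libraries, and no test was made between their levels. In hyperoxia Btg2 (229 ± 36.9 CPM per kb) came first, followed by Plk2 (161 ± 15.4), Phlda3 (147 ± 4.83) and Ephx1 (126 ± 4.38), Plk2 and Phlda3 lying within their SDs of each other. Gdf15 moved from place 28 of 35 by this level to place 14, and Trp53 from 8 to 11 while its own level stayed at 35.2 ± 4.37 and 34.7 ± 3.78 CPM per kb. The members with the 3 largest log2 fold changes, Gdf15, Zmat3 and Slc19a2, were low in room air, at 2.17, 2.0 and 0.800 CPM per kb.

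Among the upstream genes tested 0 were called, and among 20 other targets 9 were called higher. Over all genes tested 6.77% were called higher and 4.41% lower, so 0 calls among 11 genes is near that share. Of 12 kinases and modifiers that act on p53, 11 were tested and 0 were called in either direction by edgeR or limma-voom, with a median log2 fold change of 0.05; at an unadjusted p below 0.05 1 was higher and 2 lower, and DESeq2 called 1 lower. The damage kinase Atm was at 10.4 ± 1.26 CPM under room air against 11.3 ± 0.968 CPM under hyperoxia (log2 fold change of 0.12 with an SE of 0.17, adjusted p = 0.704), and Chek1, the checkpoint kinase of replicating cells, at 6.02 ± 1.31 CPM under room air against 3.27 ± 0.576 CPM under hyperoxia (log2 fold change of -0.88 with an SE of 0.26, adjusted p = 0.0532). Cdkn2a, which encodes the Mdm2 inhibitor Arf, was too low to be tested. The p53 paralogues were scarce: Trp63 had 4, 8 and 4 counts in room air and 12, 11 and 2 in hyperoxia and was not tested. Trp73 was at 0.556, 0.689 and 0.603 CPM under room air against 0.630, 3.56 and 0.660 CPM under hyperoxia (log2 fold change of 1.39 with an SE of 0.68, adjusted p = 0.239), with hyperoxia 2 alone standing apart. It was called higher in the fit with a Y-linked term (log2 fold change of 2.52, adjusted p = 0.00673), where hyperoxia 2 alone is set against room air, and its log2 fold change was 0.07 without hyperoxia 2 (adjusted p = 0.962).

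Of 20 further p53 targets, 9 rose, 0 fell and 11 did not pass; DESeq2 and limma-voom also called 0 lower, and 2 were lower at an unadjusted p below 0.05. Eda2r, a death-domain receptor of the tumour necrosis factor family, was at 1.21, 1.07 and 1.25 CPM under room air against 27.5, 43.6 and 44.6 CPM under hyperoxia (log2 fold change of 5.03). Cdkn1a, the p21 inhibitor of cyclin-dependent kinases, was at 81.1, 100.3 and 94.4 CPM and 682, 785 and 738 CPM (log2 fold change of 3.0), a rise larger than that of any member but Gdf15. The leucine sensor gene Sesn2 (log2 fold change of 2.18) and the BH3-only death gene Pmaip1 (1.36) rose as well. Trp53cor1, the long noncoding RNA beside Cdkn1a, had 4, 4 and 1 counts in room air and 30, 82 and 61 in hyperoxia (adjusted p = 0.00509), with 44.1% of its exonic bases overlapped by other genes. The median over these 20 genes was 0.18.

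Markers of other cells and of RNA quality moved in the same libraries. Of 9 alveolar type 1 markers 8 rose, their median log2 fold change being 1.24, and the lowest value of any of them in a room air library was 35.6 CPM, for Rtkn2 in room air 1. All 9 mitochondrially encoded genes, a sign of RNA quality, had a positive log2 fold change (median 0.61); 3 rose, and 8 did so without hyperoxia 2 and room air 3 together. They summed to 9727 to 16690 CPM under room air against 16760 to 26980 CPM under hyperoxia, with no overlap. All 10 markers of dividing cells fell (median -1.08), and 7 of them fell without hyperoxia 2 and room air 3 together. The part of these shifts in the rise of the p53 targets was not tested.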

How the data were processed

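The deposited values were raw counts per Ensembl gene ID, made by the authors; per the submitters' processing notes the tools were HISAT2 (2.2.1), Subread (2.0.6) with featureCounts, and DESeq2, on GRCm39, and the notes state no order. The sources used here give no annotation release or strand setting. Symbols matched 51948 of 56941 IDs. Genes were kept by filterByExpr (minimum count 10, minimum total 15), scaled by TMM and compared with edgeR 4.0.16 (robust quasi-likelihood, R 4.3.3, no covariate), hyperoxia against room air, with Benjamini-Hochberg adjustment over all genes tested. Each SE was derived from the fold change and its F statistic, and the 95% limits from the SE, so both are approximate. SDs of log2 CPM used a prior count of 2. Exonic lengths and overlaps come from GENCODE M21 (GRCm38), and printed coordinates are those of promoter windows on that build. No library was a copy of another: the smallest chi-square per degree of freedom between libraries of 1 group was 14.1. Where nothing was counted, the upper limit is 3 counts, for counting error only.

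The members, gene lists and naming rule (every member; in each pathway list the 5 called genes of largest change) were chosen with earlier results of these data known. Atm and Chek1, and the ratio of Mdm2 to Mdm4, were chosen after their values were seen. The test was checked on simulated data. Alternatives were DESeq2 size factors, library size only, no filter, 1 CPM in 3 libraries, DESeq2 1.42.0, limma-voom 3.58.1, a replicate block, Y-linked read status, and libraries left out.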

Additional observations from a re-analysis of the deposited data

How the results depend on the processing

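Under the 15 alternative fits no called member changed direction. The members called higher numbered 15 to 19 with 1 library left out and 16 to 20 otherwise. Members called lower numbered 0, but 1 with no filter on low counts, 1 with a term for Y-linked read status and 0 to 1 with 1 library left out. Repair genes called higher numbered 1 to 2 with 1 library left out and 1 without hyperoxia 2 and room air 3 together; growth arrest and signalling genes numbered 3 to 5 and 3. Of all genes, 681 to 1095 were called higher and 376 to 749 lower with 1 library left out, and 1243 were lower with no filter, 1242 by DESeq2 and 1223 with Y-linked read status; the causes were not tested. The labels do not say whether replicate numbers pair the libraries. Deviations of same-numbered libraries correlated at 0.112, -0.039 and -0.09, and only the libraries numbered 1 correlated best with each other. Correlations this small, from 3 libraries a group, cannot settle whether libraries were paired. With the replicate block 19 members were called higher and 0 lower, and 881 and 514 of all genes. With a prior count of 0.5 or library size only, the median SD of the members was 0.224 or 0.226 in room air and 0.223 or 0.25 in hyperoxia. Low counts limit Trp63 and Trp53cor1, and low counts with disagreement between replicates limit Ptprv and Trp73. The 3 libraries a group limit every SD.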

Other observations

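Psrc1 and Gtse1 encode proteins of the mitotic spindle and of the G2 phase, and both are known p53 targets. They went against the dividing-cell markers of these libraries, all 10 of which fell. Gtse1, named here after its values were seen, was at 14.6, 8.34 and 10.2 CPM under room air against 19.1, 30.3 and 28.5 CPM under hyperoxia (log2 fold change of 1.23 with an SE of 0.23, edgeR adjusted p = 0.0069), with separate groups. Psrc1 rose by a log2 fold change of 1.72 (SE 0.21), while the spindle assembly gene Tpx2 changed by -1.26 (SE 0.20) and the proliferation marker Mki67 by -1.24 (SE 0.15). Ckap2, a further spindle gene on the p53 target list, did not pass (log2 fold change of -0.08, adjusted p = 0.817).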
